A study of Mus musculus with 4 samples.

Results

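The genes described here encode the nuclear-made subunits of the mitochondrial respiratory chain and ATP synthase, measured in mouse liver with and without Shp2 in hepatocytes. They were taken by symbol from the platform annotation: every symbol beginning with Nduf, with Sdh followed by a, b, c or d, with Uqcr, with Cox4 to Cox8 or with Atp5, and also Cycs and Cyc1. This gave 91 genes with 114 probes, of 16593 genes with a symbol on the array. They comprised 33 genes of complex I, 3 of complex II, 9 of complex III, 18 of complex IV, 16 of complex V, the cytochrome c gene Cycs, 10 assembly or associated factors and 1 pseudogene, Ndufs5-ps. Ndufa4 was counted with complex IV, to which its protein is now assigned. Sdha and the subunits encoded by mitochondrial DNA were not analysed here.

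The respiratory chain passes electrons from NADH through complex I, and from succinate through complex II, to ubiquinone, complex III, cytochrome c and finally oxygen at complex IV. Complexes I, III and IV pump protons across the inner mitochondrial membrane, and complex V, the ATP synthase, uses their return to make ATP. Hepatocytes are rich in mitochondria and draw on this chain for gluconeogenesis, urea synthesis and the oxidation of fatty acids. Most subunits are encoded in the nucleus and joined to the few that mitochondrial DNA encodes with the help of assembly factors.

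Total RNA of 4 liver samples was hybridised, 1 array each: 2 labelled Shp2hep-/- (here knockout) and 2 labelled WT Shp2Floxed/Floxed (here control). Shp2 is a tyrosine phosphatase, encoded by Ptpn11, that relays receptor tyrosine kinase signals to the Ras and ERK pathway. The knockout mice were positive for Cre recombinase driven by the albumin promoter, which acts in hepatocytes, so that the other cells of the liver keep the floxed gene. All mice were 2 months of age and had been fed, and the labels do not say whether the controls also carried Cre, nor which strain or sex was used. Nothing states that the samples came from separate mice, and the p-values cover no more than the spread among the 4 samples, which may be technical. The design poses the question of which transcripts differ in liver when hepatocytes lack Shp2.

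Values are log2 intensities after background correction and quantile normalization, and each gene is represented by its brightest probe among those detected on at least 2 of the 4 arrays (detection p-value under 0.05). There were 12328 and 11809 detected probes on the knockout arrays, against 11990 and 11542 on the control arrays. The target Ptpn11 had 11.38 and 11.56 in knockout, against 12.75 and 12.85 in control (difference −1.33, SE 0.18, limma adjusted p = 0.0599); whether its probe lies in the deleted part was not analysed here. Of 13 hepatocyte markers on the array 11 were tested, with a median difference of −0.01. The probe of the hepatocyte marker Alb had only 5.75 and 6.05 in knockout and 5.90 and 5.58 in control, close to the lowest detected signal of each array (5.74 to 5.90), while that of Apoa1 had 15.80 and 15.85 in knockout and 15.74 and 15.69 in control. In bulk tissue, fewer cells of a type and less RNA per cell cannot be told apart.

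Of the 91 genes, 82 passed the detection filter and were tested, 81 of them detected on all 4 arrays. None passed limma's test at an adjusted p under 0.05, against 74 of all 9311 rows tested (0.795%). At an unadjusted p under 0.05 there were 9 genes lower in knockout (11% of those tested, against 7.07% of all rows) and 0 higher (against 9.45% of all rows). Of the 9, 4 were among the 10 assembly and associated factors (40%). The others were 2 of 32 genes of complex I (6.25%), 2 of 7 of complex III (28.6%) and 1 of 13 of complex IV (7.69%). Complexes II and V had 0. In complexes I and IV the share was thus near that of all rows. The differences, knockout minus control on the log2 scale, had a median of −0.14, against 0.01 for all rows. Of the 82, 66 were below 0 (80.5%, against 49.4% of all rows). The median SE of a difference was 0.19, and 71 of the 82 differences were under 0.5 in size. The 95% confidence interval of the difference lay within a 2-fold change in either direction for 67 of the 82. The plot of differences by complex shows every gene tested except the pseudogene.

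**Figure D1:**
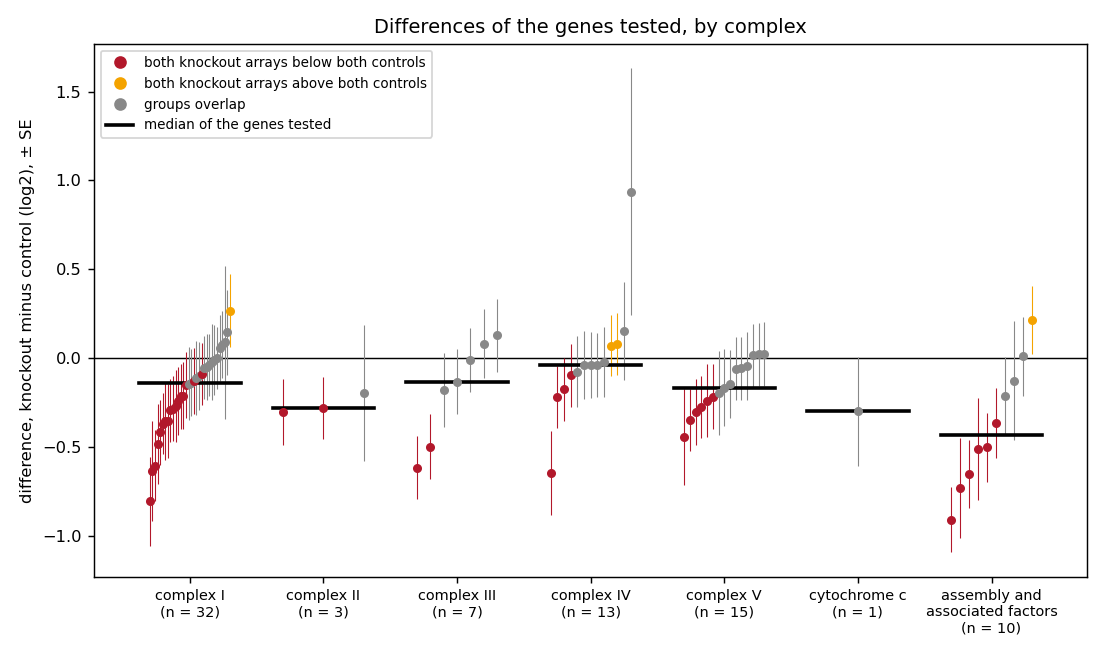
Difference in log2 intensity, knockout minus control, of each gene tested (points, with the model's SE as bars), sorted within each complex; black lines are medians, and colour shows whether the 2 knockout and 2 control arrays overlap. Medians ran from −0.04 in complex IV to −0.28 in complex II among the 5 complexes, and stood at −0.43 in the 10 assembly and associated factors.

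Both knockout arrays lay below both control arrays for 37 of the 82 genes (45.1%, against 23.8% of all rows), and above both for 4 (4.88%, against 24.8% of all rows). The 4 genes above were Ndufv1, Cox4i1, Ndufa4 and Ndufaf1. With 2 arrays a group this ordering carries no error of its own, and several of the gaps were slight. Relative to each gene's control mean, the median over the 82 genes was −0.18 and −0.12 on the knockout arrays, against −0.01 and 0.01 on the control arrays. Because that mean is taken over the 2 controls, their medians mirror each other by construction and do not measure how far they agree. The median over all rows was 0.02 and 0.00 on the knockout arrays and 0.00 on both control arrays. The medians of both knockout arrays thus lay lower than those of both controls in complexes I, II, III and V and among the assembly factors. In complex IV only that of knockout replicate 1 did so, at −0.08, while knockout replicate 2 stood at 0.01 beside −0.01 and 0.01 in the controls. Single genes also varied within groups. Over the 82 genes the median absolute difference was 0.18 between the 2 knockout arrays, 0.13 between the 2 controls and 0.17 between group means. A difference between means of 2 arrays varies less than one between 2 single arrays, so the last value is not directly comparable with the others. Over all rows these values were 0.25, 0.215 and 0.25.

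**Figure D2:**
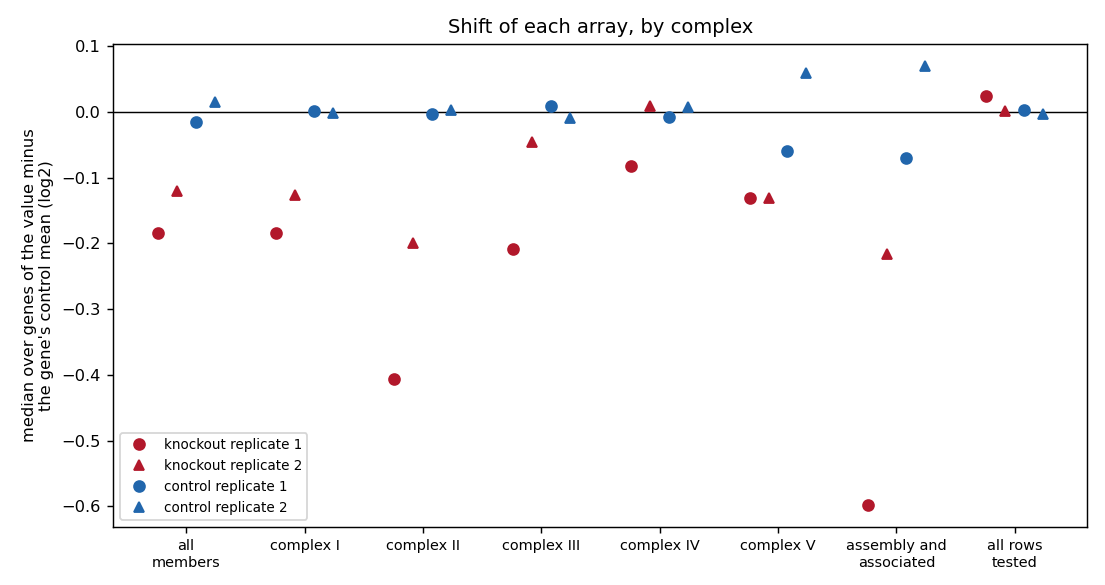
Median, over the genes of each complex, of the log2 value on an array minus that gene's mean of the 2 control arrays; red marks are knockout arrays, blue marks control arrays, circles replicate 1 and triangles replicate 2. The 2 control marks mirror each other by construction. Knockout replicate 1 lay farther down than knockout replicate 2 in complex II (−0.41 and −0.20) and among the assembly factors (−0.60 and −0.22).

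The medians of the smaller groups depended on single arrays. Without knockout replicate 1 the median difference was −0.12 over all 82 genes, −0.05 in complex III, 0.01 in complex IV and −0.22 among the assembly factors. Without knockout replicate 2 it was −0.18 over all 82, −0.21 in complex III and −0.08 in complex IV. Without control replicate 1 it was −0.13 in complex IV, −0.07 in complex III and −0.25 in complex V, and without control replicate 2 it was −0.05 in complex V. Over the 4 fits, between 59 and 63 of the 82 genes were below 0 (72% to 76.8%, against 47.6% to 50% of all rows).

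The 12 genes with the smallest p are shown array by array in the plot of single values, and all lay lower on both knockout arrays. They came from the assembly factors (Ndufaf4, Sdhaf3, Sdhaf1, Ndufaf3), complex I (Ndufb11, Ndufb3, Ndufa6, Ndufb4, Ndufb2), complex III (Uqcrb, Uqcrh) and complex IV (Cox7a1). No gene of complex II or V was among them.

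**Figure D3:**
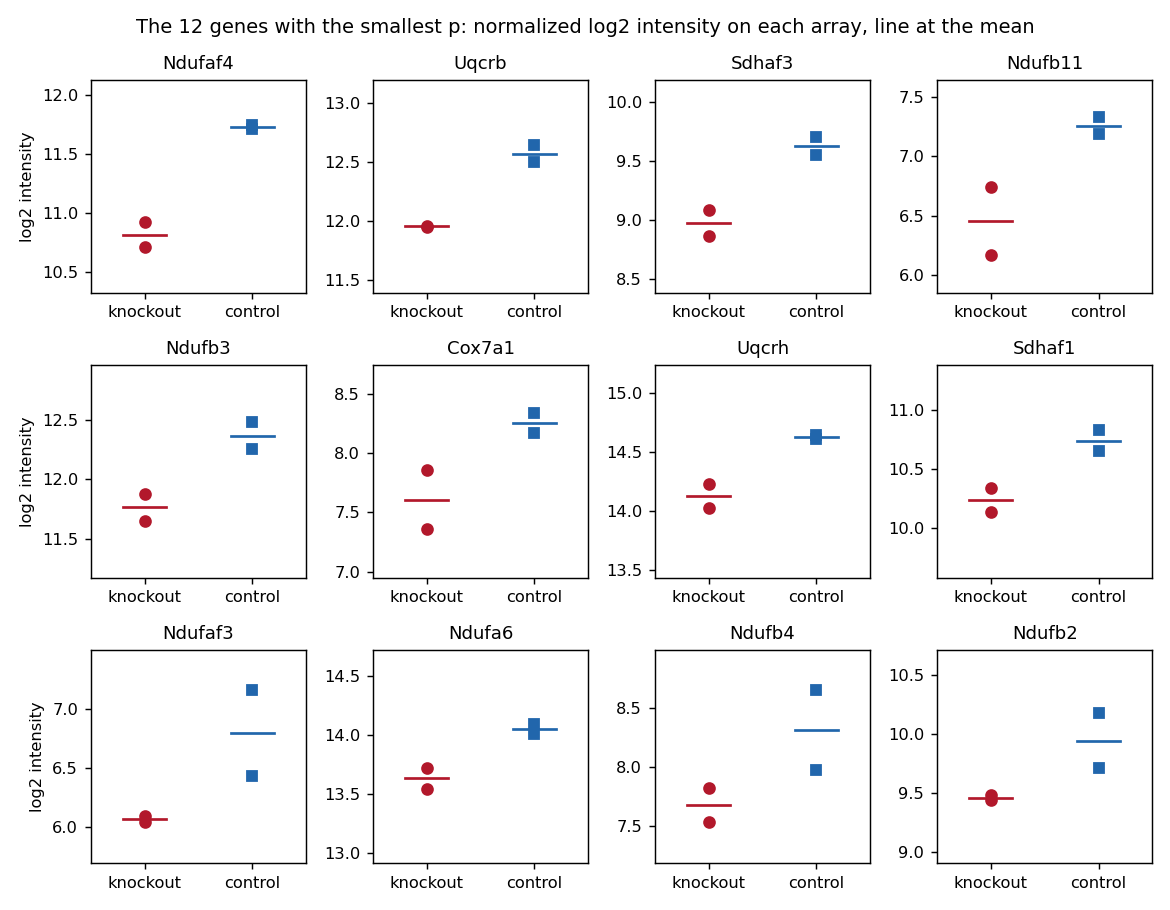
Normalized log2 intensity on each array for the 12 genes with the smallest p; red circles are knockout arrays, blue squares control arrays, lines the group means, and every panel spans the same log2 range around its own middle. The groups do not overlap in any of the 12 panels, and Ndufaf4 (10.71 and 10.92 in knockout, 11.71 and 11.74 in control) has the smallest p.

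Complex I takes electrons from NADH, and its nuclear core subunits hold the flavin and the iron-sulfur clusters. The core genes differed little and in both directions, with a median of −0.04 over the 5 tested. Ndufv1, which encodes the flavin-binding subunit, had 14.21 and 13.91 in knockout, against 13.70 and 13.90 in control (difference 0.27, SE 0.21, adjusted p = 0.58). Its lower knockout value was only just above its higher control value. Ndufs3 had 12.57 and 12.88 in knockout, against 12.93 and 13.05 in control (difference −0.27, SE 0.20, adjusted p = 0.571). The other core subunit genes overlapped between groups, with differences of 0.08 for Ndufs7, −0.04 for Ndufs8 and −0.14 for Ndufv2, each with an SE of 0.18 or 0.19. The probe of Ndufs1, the largest iron-sulfur subunit, was not well above background on any array.

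The accessory subunits of complex I surround that core and are needed for its assembly and stability. Of the 10 Ndufb genes, whose products sit in the membrane arm, 9 were below 0 and 7 were lower on both knockout arrays, with a median difference of −0.32. Of all rows, 49.4% were below 0 and 23.8% were lower on both. Ndufb11 had 6.74 and 6.17 in knockout, against 7.33 and 7.19 in control (difference −0.80, SE 0.25, 1.75-fold lower, adjusted p = 0.219). Its signal was low, and the 6.17 lay close to the lowest detected signal of that array (5.84). Ndufb3 had 11.88 and 11.65 in knockout, against 12.26 and 12.49 in control (difference −0.61, SE 0.20, adjusted p = 0.238). Both genes had non-overlapping groups, and neither passed the test.

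Ndufb4 had 7.82 and 7.53 in knockout, against 7.97 and 8.65 in control (difference −0.63, SE 0.28, adjusted p = 0.354). Here the 2 controls lay farther apart than the gap between the groups. Ndufb10 was the 1 member of the set above 0, with 10.52 and 9.41 in knockout and 9.54 and 10.20 in control, which overlap widely (difference 0.09, SE 0.43).

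Among the 12 Ndufa genes of complex I, 11 were below 0, with a median of −0.16. Ndufa6, a subunit of the matrix arm, had 13.55 and 13.72 in knockout, against 14.09 and 14.01 in control (difference −0.42, SE 0.18, adjusted p = 0.346). Ndufa8 was as good as equal on its representing probe, with 13.47 and 13.41 in knockout and 13.45 and 13.43 in control. The 1 Ndufa gene above 0 was Ndufab1, the mitochondrial acyl carrier protein, at 0.14 (SE 0.24). The accessory genes Ndufs4, Ndufs6 and Ndufv3 differed by −0.36, −0.05 and 0.06. Over complex I as a whole, 27 of 32 genes were below 0, against 49.4% of all rows. On both knockout arrays 17 lay below and 1 above (53.1% and 3.12%, against 23.8% and 24.8% of all rows).

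Complex II, succinate dehydrogenase, is shared by the citric acid cycle and the respiratory chain and is made only of nuclear-encoded subunits. Sdhb, its iron-sulfur subunit, had 11.95 and 12.16 in knockout, against 12.35 and 12.36 in control (difference −0.30, SE 0.18, adjusted p = 0.486). Sdhc, a membrane anchor that binds haem and ubiquinone, had 12.95 and 12.97 in knockout, against 13.27 and 13.21 in control (difference −0.28, SE 0.17, adjusted p = 0.496). Sdhd, the other anchor, overlapped between groups, with 9.83 and 10.76 in knockout, against 10.18 and 10.81 in control. None passed the test, and the interval of the difference ran from −0.77 to 0.16 for Sdhb and from −0.72 to 0.16 for Sdhc.

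Complex III passes electrons from ubiquinol to cytochrome c. Its small subunit gene Uqcrb, whose product is known as the ubiquinone-binding protein, had 11.94 and 11.96 in knockout, against 12.49 and 12.64 in control (difference −0.62, SE 0.18, 1.53-fold lower, adjusted p = 0.198). The hinge protein gene Uqcrh, whose product helps cytochrome c1 meet cytochrome c, had 14.03 and 14.23 in knockout, against 14.61 and 14.64 in control (difference −0.50, SE 0.18, adjusted p = 0.282). Neither passed, although both groups were tight. Over the alternatives that kept all arrays the adjusted p of Uqcrb ran from 0.0461, with a variance trend in eBayes, to 0.298.

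The other genes of complex III stayed close to 0. The core subunit genes Uqcrc1 and Uqcrc2 differed by 0.08 (SE 0.19) and −0.13 (SE 0.18), Uqcr10 by 0.13 and Uqcr11 by −0.01, each with overlapping groups. Cyc1, cytochrome c1, had 12.63 and 13.00 in knockout, against 13.01 and 12.99 in control (difference −0.18, SE 0.21). Its difference from control was in knockout replicate 1 alone. The probes of Uqcrfs1, the Rieske iron-sulfur protein, and of Uqcrq were not well above background. Cycs, the mobile carrier cytochrome c, had 7.41 and 8.18 in knockout, against 8.26 and 7.93 in control (difference −0.30, SE 0.31), and overlapped as well.

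Complex IV, cytochrome c oxidase, has a catalytic core encoded by mitochondrial DNA and nuclear subunits that come in tissue isoforms. The median over its 13 tested genes was −0.04, the nearest to 0 of the complexes with all arrays. Without control replicate 1 it was −0.13, beside −0.07 in complex III, and without control replicate 2 it was −0.06, beside −0.05 in complex V. Cox4i1, the widely expressed isoform of the regulatory subunit IV, had 14.91 and 14.84 in knockout, against 14.81 and 14.78 in control (difference 0.08, SE 0.17). With no normalization between arrays its difference was −0.0002. Ndufa4 had 14.97 and 14.95 in knockout, against 14.88 and 14.90 in control (difference 0.07, SE 0.17). The differences of Cox5a, Cox5b, Cox6c and Cox7c were between −0.10 and −0.04, and that of Cox7b was 0.15 (SE 0.27).

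The isoforms known from liver were detected on all arrays, and none passed the test. Cox6a1 had 14.54 and 14.65 in knockout, against 14.54 and 14.72 in control, which overlap. Its further probe did not overlap, with 13.76 and 13.80 in knockout, against 14.13 and 14.10 in control. Cox7a2 had 10.01 and 10.12 in knockout, against 9.95 and 10.22 in control, and overlapped between groups. Cox8a did not overlap, with 14.17 and 14.08 in knockout, against 14.32 and 14.36 in control (difference −0.22, SE 0.18, adjusted p = 0.597). The probes of Cox4i2 (lung), Cox8b (heart and muscle), Cox7b2 and Cox8c (testis) were not well above background on any array, and that of the muscle isoform Cox6a2 was detected on 1 control array only.

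Cox7a1, the isoform known from heart, muscle and brown fat, was detected on all 4 arrays at a low signal. It had 7.86 and 7.36 in knockout, against 8.34 and 8.17 in control (difference −0.65, SE 0.24, 1.57-fold lower, adjusted p = 0.279). Of the defining markers of those tissues, the muscle genes Ckm, Acta1, Myh4, Myh7 and Tnnt3 and the brown fat genes Ucp1, Cidea, Adipoq and Plin1 were not detected on any array. Of the others on those lists, the muscle gene Mb had 5.93 and 5.75 in knockout, where 1 array detected it, against 6.22 and 6.08 in control, and Actn3 overlapped between groups (−0.25, SE 0.45). Elovl3, a fatty acid elongase on the brown fat list, had 9.46 and 9.61 in knockout, against 8.84 and 8.77 in control (difference 0.73, SE 0.18, adjusted p = 0.16). Their part in the Cox7a1 values was not tested. The testis isoform Cox6b2 was above background on 1 knockout and 1 control array, with 7.61 and 5.49 in knockout and 5.31 and 5.91 in control (difference 0.94, SE 0.70). That value rests on knockout replicate 1, without which the difference was −0.13. Cox6b1, the common isoform, differed by −0.18 (SE 0.18).

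Complex V consists of the catalytic F1 head in the matrix and a membrane part with stalks that holds the proton channel. Of the 5 F1 genes, 3 stood near 0. Atp5b, the catalytic beta subunit, had 15.72 and 15.87 in knockout, against 15.80 and 15.75 in control (difference 0.02, SE 0.18). Atp5c1 (gamma) and Atp5d (delta) both differed by 0.02 (SE 0.18), Atp5a1 (alpha) by −0.17 (SE 0.22) and Atp5e (epsilon) by −0.24 (SE 0.21). All 10 tested genes of the membrane part and stalks were below 0 (against 49.4% of all rows), with a median of −0.21. Lower on both knockout arrays were 5 of them, against 23.8% of all rows. The difference between the head and the membrane part was not tested. The median of the complex was −0.05 without control replicate 2.

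The c ring that turns with proton flow is encoded by a trio of genes with the same mature protein. Atp5g2 had 10.71 and 10.66 in knockout, against 11.02 and 11.05 in control (difference −0.35, SE 0.17, adjusted p = 0.404). Atp5g1 had 14.12 and 13.95 in knockout, against 14.28 and 14.22 in control (difference −0.22, SE 0.18, adjusted p = 0.615). Atp5g3 had 15.83 and 15.81 in knockout, against 15.82 and 15.94 in control, which overlap. Its difference, −0.06, turned to 0.01 with cyclic loess in place of quantile normalization. Atp5o, which encodes the stalk protein that gives oligomycin sensitivity, had 7.58 and 8.22 in knockout, against 8.23 and 8.46 in control (difference −0.44, SE 0.27). Atp5l, subunit g, and Atp5j, coupling factor 6, differed by −0.30 and −0.28 (SE 0.18 each). The probe of Atp5k, subunit e, was not well above background.

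The assembly and associated factors had the lowest median, −0.43 over 10 genes, of which 8 were below 0. On both knockout arrays 6 were lower (60%, against 23.8% of all rows) and 1 was higher (10%, against 24.8%). Ndufaf4, an assembly factor of complex I, had 10.71 and 10.92 in knockout, against 11.71 and 11.74 in control (difference −0.91, SE 0.19, 1.88-fold lower, adjusted p = 0.126). This was the smallest p of all 82 genes. It passed the threshold with a variance trend in eBayes (adjusted p = 0.0153) and with the authors' processed values (adjusted p = 0.0450), and over all the alternatives that kept all arrays it ran up to 0.172. Ndufaf3, which works with Ndufaf4, had 6.04 and 6.09 in knockout, against 6.43 and 7.16 in control (difference −0.73, SE 0.28, adjusted p = 0.296). The 2 controls of Ndufaf3 lay farther apart than the gap between the groups. Its knockout values were close to the lowest detected signal of those arrays (5.74 and 5.84).

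The factors that mature complex II also lay low. Sdhaf3 had 8.87 and 9.08 in knockout, against 9.55 and 9.71 in control (difference −0.65, SE 0.19, 1.57-fold lower, adjusted p = 0.201), and Sdhaf1 had 10.13 and 10.34 in knockout, against 10.65 and 10.83 in control (difference −0.50, SE 0.19, adjusted p = 0.293). These 2 proteins help to place iron-sulfur clusters in Sdhb. Sdhaf4, which acts on Sdha, and Sdhaf2, which attaches its flavin, differed by −0.37 (SE 0.20) and −0.21 (SE 0.22). Cox7a2l, a factor that joins complexes III and IV into supercomplexes, had 10.88 and 11.63 in knockout, against 11.79 and 11.74 in control. Ndufaf1, another complex I factor, differed the other way, by 0.21 (SE 0.19), and Ndufaf5 and Ndufaf7, which modify core subunits, by 0.01 and −0.13.

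Promoters of respiratory chain genes are known to bind the nuclear respiratory factors NRF1 and NRF2, the second an ETS family factor with the DNA-binding subunit GABPA. RefSeq promoter windows of GRCm38.p6, 250 bases before to 50 after the start, were at hand for 75 of the 91 genes and were searched on both strands; matches that overlap were each counted. The core of the NRF1 motif, GCGCNTGCG, was in the window of 25 of the 75 (33.3%), against 7.12% of all 27025 genes in the table. The ETS motif CCGGAAG was in 20 (26.7%), against 9.93%. The YY1 motif AAGATGGCG was in 7 (9.33%), against 1.64%, and the estrogen-related receptor half-site AAGGTCA in 7 (9.33%), against 5.38%. Tested genes with the NRF1 motif had a median difference of −0.17 (24 genes) and those without it −0.15 (47 genes). For the ETS motif the medians were −0.22 (19 genes) with it and −0.12 (52 genes) without it, for the estrogen-related receptor half-site −0.27 (6 genes) and −0.14 (65 genes). The YY1 motif went the other way, with −0.06 (7 genes) with it and −0.19 (64 genes) without it.

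A pair of assembly factor promoters and a pair from subunits with differences near 0 on their representing probes are printed 5′ to 3′. They are examples picked after the differences were seen, and a link between motif and difference was not tested. Capitals mark matches to the NRF1 or ETS motif on either strand, and the build is GRCm38.p6.
Ndufaf4 (chr4:24897833-24898132, plus strand): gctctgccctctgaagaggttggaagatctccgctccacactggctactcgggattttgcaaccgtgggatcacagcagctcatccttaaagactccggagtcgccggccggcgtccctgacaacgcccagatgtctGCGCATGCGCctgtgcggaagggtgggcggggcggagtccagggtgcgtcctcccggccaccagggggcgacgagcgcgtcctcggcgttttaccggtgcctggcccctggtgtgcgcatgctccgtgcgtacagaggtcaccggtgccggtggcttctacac
Sdhaf3 (chr6:6955768-6956067, plus strand): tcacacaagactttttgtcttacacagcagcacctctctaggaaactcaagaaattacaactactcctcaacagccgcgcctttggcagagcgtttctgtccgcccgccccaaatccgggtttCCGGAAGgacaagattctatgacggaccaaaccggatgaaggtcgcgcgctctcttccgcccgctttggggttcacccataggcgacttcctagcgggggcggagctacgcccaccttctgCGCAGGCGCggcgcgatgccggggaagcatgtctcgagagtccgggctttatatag
Cox6a1 (chr5:115348909-115349208, minus strand): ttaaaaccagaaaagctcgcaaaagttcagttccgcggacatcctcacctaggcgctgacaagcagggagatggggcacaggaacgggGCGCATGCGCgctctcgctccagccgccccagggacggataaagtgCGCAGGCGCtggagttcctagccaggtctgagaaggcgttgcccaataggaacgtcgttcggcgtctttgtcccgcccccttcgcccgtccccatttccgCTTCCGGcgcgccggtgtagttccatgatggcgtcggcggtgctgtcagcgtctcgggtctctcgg
Uqcrc1 (chr9:108936398-108936697, plus strand): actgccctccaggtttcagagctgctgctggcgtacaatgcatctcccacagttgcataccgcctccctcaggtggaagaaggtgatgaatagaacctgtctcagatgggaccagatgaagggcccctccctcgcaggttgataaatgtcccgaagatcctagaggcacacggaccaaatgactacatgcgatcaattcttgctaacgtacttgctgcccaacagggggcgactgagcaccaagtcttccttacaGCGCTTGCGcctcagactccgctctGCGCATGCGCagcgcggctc
The Ndufaf4 window (difference −0.91) holds 2 NRF1 matches, which overlap on opposite strands, and that of Sdhaf3 (−0.65) holds 1 beside 1 ETS match. The windows of Cox6a1 (−0.04, but −0.34 on its further probe) and Uqcrc1 (0.08) hold 3 NRF1 matches each, of which 2 overlap. That of Cox6a1 also holds 1 ETS match, while those of Ndufaf4 and Uqcrc1 hold none.

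Several genes were measured by more than 1 probe, which checks the direction on the same RNA. Of 13 genes with several passing probes, 10 were lower on each of them, 2 (Uqcr10 and Ndufaf5) were higher on each, and Ndufv3 went both ways. Of the 17 further probes 15 were below 0. A further probe of Ndufa5 had 8.34 and 9.11 in knockout, against 9.50 and 9.54 in control, a difference of −0.80 beside −0.37 on the representing probe. The 3 probes of Sdhb differed by −0.30, −0.42 and −0.71, and the 4 of Ndufs4 by between −0.36 and −0.12. The −0.71 came from a dim probe, with 5.99 and 5.40 in knockout, where 1 array detected it, against 6.16 and 6.64 in control. Sizes agreed less well than directions, as Cox6a1 (−0.04 and −0.34) and Ndufa8 (0.00 and −0.35) show. With every probe tested on its own, 0 of 99 passed limma's test at an adjusted p under 0.05, against 0.377% of all 12197 probes. At an unadjusted p under 0.05, 9 were lower (9.09%, against 6.8% of all probes) and 0 higher (against 8.27%).

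**Figure D4:**
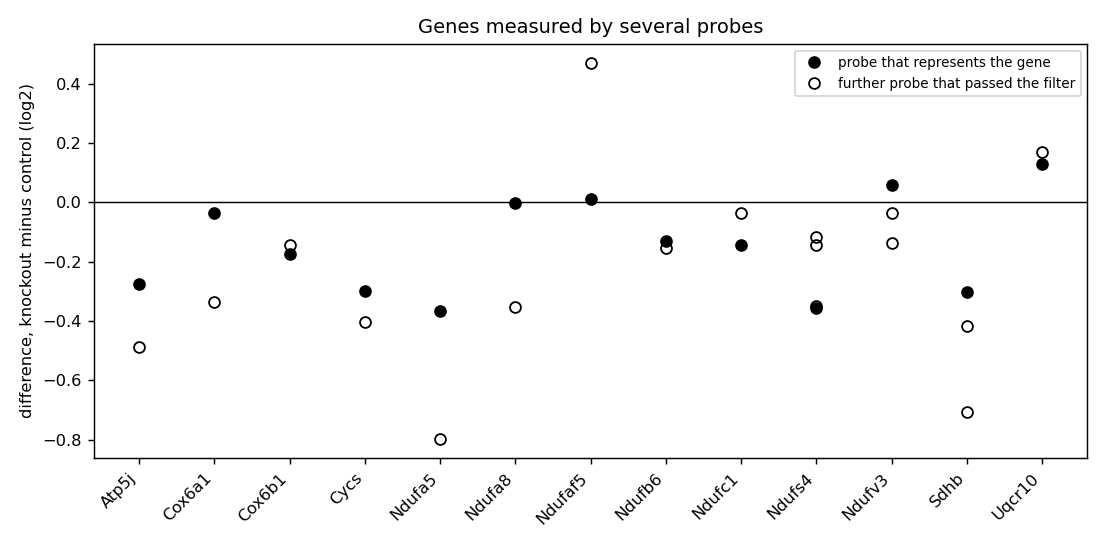
Difference in log2 intensity, knockout minus control, for each passing probe of the 13 genes with several; filled circles are the probes that represent their genes, open circles the further probes. In 10 genes all probes lie below 0, and in Ndufv3 they run from −0.14 to 0.06.

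Other mitochondrial functions were summarised in the same way. Citric acid cycle genes had a median of 0.09, with 3 of 12 lower and 3 higher on both knockout arrays (25% each, against 23.8% and 24.8% of all rows). The sign of that median turned when passing probes were averaged (−0.017), with every probe (−0.053) and without knockout replicate 2 (−0.0052), and the median was 0.038 without control replicate 1. Idh2 had 12.45 and 12.25 in knockout, against 11.86 and 11.60 in control (difference 0.62, SE 0.20, adjusted p = 0.233). Ogdh, a subunit of the oxoglutarate dehydrogenase complex, had 11.06 and 10.86 in knockout, against 11.70 and 11.45 in control (difference −0.61, SE 0.20, adjusted p = 0.235), and the citrate synthase gene Cs differed by 0.34 (SE 0.18). Mitochondrial ribosomal protein genes had a median of −0.07, with 21 of 71 lower (29.6%, against 23.8% of all rows) and 5 higher (7.04%, against 24.8%) on both knockout arrays. It was 0.0078 with no normalization between arrays, −0.15 without control replicate 1, −0.12 without knockout replicate 2 and −0.024 without control replicate 2. The genes named by the rule were Mrps17 (−0.69, SE 0.18), Mrps15 (−0.70, SE 0.19) and Mrpl45. The probe of Mrpl45 had 6.25 and 6.28 in knockout, against 5.26 and 5.51 in control, where neither array detected it; against the lowest detected signal it was at least 1.33-fold higher. It entered the test only through the knockout arrays, so that its p is not given, and it is among the 5 counted as higher.

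Cytosolic ribosomal protein genes, whose mean level of 12.94 was near the 12.23 of the respiratory chain genes, had a median of −0.22. On both knockout arrays 40 of 54 were lower (74.1%, against 23.8% of all rows) and 1 was higher (1.85%, against 24.8%). Among them Rpl29 fell by 1.78 (SE 0.20, adjusted p = 0.0426), to 11.05 and 10.71 in knockout, against 12.62 and 12.68 in control; the call was lost with every probe tested on its own (adjusted p = 0.0566) and without any 1 array (adjusted p from 0.0958 to 0.144). With the mean of its probes the difference was −3.54. The 40 also include Rpl3l, which neither knockout array detected, so that it entered the test only through the control arrays, where it is higher. Lower values on both knockout arrays were thus not found in the respiratory chain genes alone. Split by mean log2 level, the share of the 82 genes lower on both knockout arrays was 57.1% under 8 (7 genes), 50% from 8 to 10 (10 genes), 54.5% from 10 to 12 (11 genes), 48.4% from 12 to 14 (31 genes) and 30.4% at 14 and over (23 genes). Among rows outside the set it was 21.2%, 23.9%, 25.5%, 27.5% and 27.4% at the same levels. The share higher on both knockout arrays was 0% to 9.09% of the 82 genes over these levels, against 22.5% to 29.2% of other rows. At 14 and over it was 8.7% of the 23 genes, against 26.1% of other rows, and the median difference was −0.06, against −0.01.

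**Figure D5:**
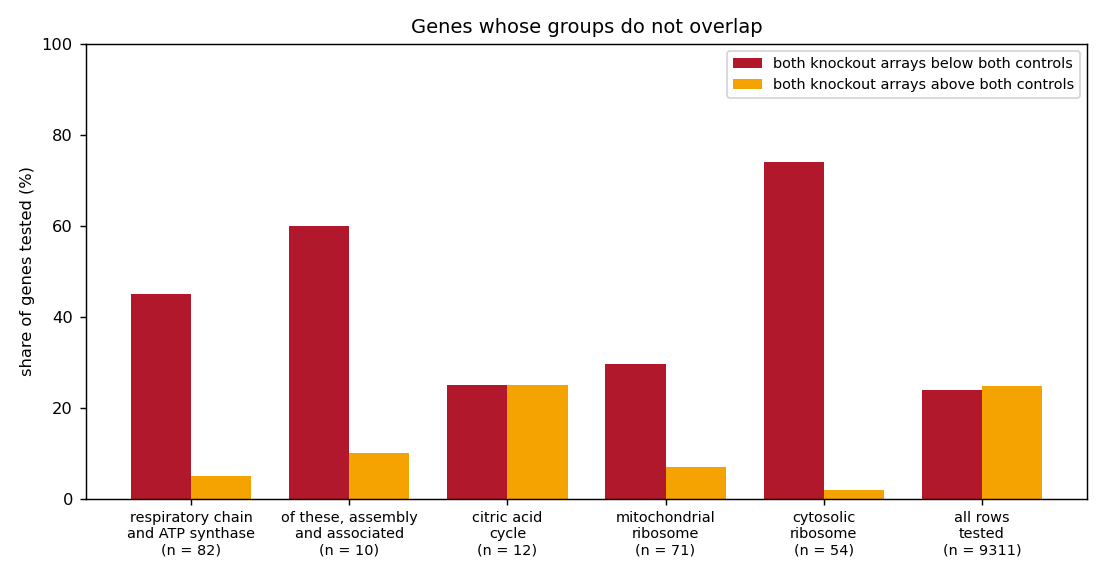
Share of the genes tested whose 2 knockout arrays both lay below (red) or both above (orange) the 2 control arrays, in percent, for the respiratory chain and ATP synthase genes, their assembly factors, other gene lists and all rows tested. Respiratory chain genes stand at 45.1% below and 4.88% above, between all rows (23.8% and 24.8%) and cytosolic ribosomal protein genes (74.1% and 1.85%).

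Regulators of mitochondrial gene expression had a median of 0.05, and none of 12 passed. At an unadjusted p under 0.05 in limma's test 2 were lower and 0 higher, against 7.07% and 9.45% of all rows. The median was −0.04 without control replicate 2, −0.0007 without knockout replicate 2, 0.11 without control replicate 1 and 0.14 with no normalization between arrays. Esrra, the estrogen-related receptor alpha that drives respiratory genes, had 10.55 and 10.39 in knockout, against 11.08 and 10.95 in control (difference −0.54, SE 0.18, adjusted p = 0.247). Gabpa, the DNA-binding subunit of NRF2, had 6.16 and 6.49 in knockout, against 6.93 and 6.80 in control (difference −0.54, SE 0.20, adjusted p = 0.289). Both had non-overlapping groups, as had Polrmt, the mitochondrial RNA polymerase, which differed by 0.29 (SE 0.18).

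Of 26 further assembly and cofactor genes, chiefly of complex IV, none passed, and the median was −0.12 (−0.034 without knockout replicate 1, −0.23 without knockout replicate 2, −0.07 without control replicate 2 and −0.20 with every probe). Coa6, a copper-handling factor of complex IV, had 10.98 and 11.49 in knockout, against 12.28 and 12.13 in control (difference −0.97, SE 0.24, adjusted p = 0.156). Lrpprc, which stabilises mitochondrial messages, differed by −0.70 (SE 0.22) and Cox20 by −0.73 (SE 0.24), both with groups that did not overlap. Genes that feed the quinone pool (15 tested) had a median of −0.14, which was −0.034 without knockout replicate 1, −0.032 without knockout replicate 2 and −0.033 without control replicate 1. The smallest p values were those of Coq10b (−0.55, SE 0.18), Coq7 (−0.44, SE 0.17) and Coq5 (0.28, SE 0.18). Genes of ATP export and uncoupling (7 tested) had a median of −0.15, which was 0.084 without knockout replicate 1, −0.29 without knockout replicate 2, −0.06 without control replicate 2 and −0.08 with no normalization between arrays, with the outer membrane channels Vdac1 at −0.45 (SE 0.18) and Vdac2 at −0.28 (SE 0.24). Atpif1, the inhibitor of ATP synthase hydrolysis, had 12.74 and 12.44 in knockout, against 12.29 and 12.31 in control (difference 0.29, SE 0.20).

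Markers of other cells also differed between the groups, though no gene of these lists passed the test. Red blood cell markers (4 tested) had a median difference of 1.24, and all 4 were higher on both knockout arrays. Macrophage markers (12 tested) had a median of 0.79, with 9 higher and 0 lower on both. Of these 12, 2 were below 0, among them Cd163 (−0.81, groups overlapping). Stellate and matrix markers (9 tested) had a median of 0.42, with 5 higher and 1 lower on both (difference −0.43). Over all rows 24.8% were higher and 23.8% lower on both knockout arrays. Hbb-b2, Cd5l, Cybb and Lrat were not detected. The summed intensity of the 4 red blood cell genes was 31440 and 32941 in knockout, against 19314 and 12163 in control, that of the 12 macrophage genes 14848 and 13405 in knockout, against 10759 and 6086 in control, and that of the 9 stellate and matrix genes 20500 and 20814 in knockout, against 17245 and 11883 in control. Hepatocyte markers summed to 420169 and 434814 in knockout, against 426962 and 418784 in control. Endothelial markers (11 tested) had a median of −0.06 and overlapped between groups. Of 5 cholangiocyte markers Krt19, Krt7 and Cftr were not detected, and Sox9 and Muc1 differed by −0.11 and −0.10. The part of these cells in the lower respiratory chain values was not tested.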

How the data were processed

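Liver RNA (500 ng a sample) was amplified into biotin-labelled cRNA and hybridised to Illumina expression arrays, per the labels' protocols. The authors deposited, per the file headers, each probe's average bead intensity with its detection p-value, for 25697 probes on each array; 4 rows without a probe identifier were left out. Intensity is linear, background had not been subtracted, and the mean of 1186.5 on every array shows scaling before deposit by a method not given in the sources used here. A second deposited table holds processed intensity (25.3% to 25.4% of values below 0; method not given in the sources used here), used as an alternative after a shift to a minimum of 16.

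Background correction and normalization used neqc (limma 3.58.1, R 4.3.3; background from detection p-values, offset 16, quantile normalization, log2). Detection p under 0.05 on at least 2 arrays was required, and a gene was its brightest passing probe. This gave 9311 rows: 8579 genes and 732 probes with no symbol (23978 probes had 1 symbol, 1719 none). lmFit and eBayes compared 2 knockout with 2 control arrays, two-sided, with Benjamini-Hochberg adjustment over all rows (2 residual and 3.375 prior degrees of freedom). The fit was also run on data simulated as independent values, with variances drawn from its own fitted prior. That run does not cover array effects or samples that share an animal. Medians and counts over gene lists carry no test. The members and lists were chosen with earlier results of these data known. Genes named were called genes, the 4 smallest p of a complex or factor group, core, F1 and isoform genes, and the leading 3 of other lists; others, the split by level and the promoter search were added after values were seen. The number of arrays limits the precision. All 4 arrays lay on 1 BeadChip, each group at adjacent positions, and chip position cannot be told apart from group. Alternatives changed the normalization, offset, filter, probe rule, eBayes options and arrays.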

Additional observations from a re-analysis of the deposited data

How the results depend on the processing

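Genes called over all rows numbered 39 higher and 29 lower, and members called 0 and 0. The authors' processed values gave 115 higher and 80 lower, with 1 member lower, an offset of 50 gave 82 and 62, and a variance trend in eBayes gave 183 and 126, with 2 members lower. Every probe on its own gave 19 higher, and leaving out an array 0 to 12 higher and 0 to 15 lower. With no normalization between arrays the median of all rows was 0.10, and the median of the 82 respiratory chain genes was −0.14, or −0.25 relative to all rows. Over the 10 alternatives that kept all arrays the members' own median, not set relative to all rows, stayed between −0.16 and −0.13. It was taken over 81 genes with detection on all arrays, 91 with no detection filter and 99 probes with every probe.

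The complex I median was −0.171 with cyclic loess and −0.171 with no normalization between arrays, −0.137 from the processed values, −0.138 with no detection filter, −0.145 with the mean of probes and −0.144 with every probe. That of complex V was −0.12 with no normalization between arrays. Biogenesis regulators stood at 0.14 with no normalization between arrays. The quinone pool list was at −0.103 with no normalization between arrays, −0.091 with the mean of probes and −0.096 with every probe, and the citric acid cycle list at −0.017 with the mean of probes and −0.053 with every probe.

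Leaving out single arrays gave medians of −0.18 to −0.12 for all members, −0.18 to −0.13 for complex I, −0.41 to −0.20 for complex II, −0.21 to −0.045 for complex III, −0.13 to 0.0096 for complex IV, −0.25 to −0.055 for complex V and −0.60 to −0.22 for the assembly factors. The lists ran from −0.04 to 0.11 (regulators), −0.23 to −0.034 (further assembly genes), −0.0052 to 0.12 (citric acid cycle), −0.12 to −0.032 (quinone pool), −0.29 to 0.084 (ATP export), −0.15 to −0.024 (mitochondrial ribosome) and −0.24 to −0.17 (cytosolic ribosome). Of 41 named members tested, 25 kept their sign in every setting and 37 in those with all arrays. The sign of the complex IV median turned without knockout replicate 1, and that of the mitochondrial ribosome was 0.0078 with no normalization between arrays. The cause was not tested. Detected signal limits what dim probes show: 9 of the 91 genes could not be tested. No paired analysis was possible because the control labels carry no replicate number.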
